A study of Mus musculus with 6 samples.

Results

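Chemical synapses release transmitter from vesicles, and the set described here is made of 37 genes for the presynaptic side of that process. They encode vesicle proteins, synaptotagmins, SNARE proteins and complexins, Rab3 and active zone proteins, the enzymes and the transporter that supply GABA, and proteins of vesicle recovery. The members were chosen by name, as synaptic vesicle and presynaptic release genes, and all 37 were found once among the 29659 genes of the deposited table. RNA was sequenced from mouse lateral ganglionic eminence (LGE), the embryonic ventral forebrain region whose progenitors give rise to striatal projection neurons, at embryonic day 16.5. Both groups were of strain C57BL/6 and carried Dlx5/6-Cre, a Cre recombinase transgene named for the Dlx5/6 regulatory sequence, active in ganglionic eminence neurons. The 3 control libraries carried that transgene only (genotype Dlx5/6-Cre), and the 3 Zfhx3-CKO libraries carried it with Zfhx3F/F, floxed copies of the transcription factor gene Zfhx3. Cells of the tissue in which the transgene is not active keep the gene. The comparison asks how the conditional loss of Zfhx3 in the LGE changes gene expression, here that of the release machinery.

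At a presynaptic terminal, transmitter is loaded into vesicles, which are docked and primed at the active zone by large scaffold proteins and by Unc13 proteins. SNARE proteins of the vesicle (Vamp) and of the plasma membrane (Snap25, syntaxin) pull the membranes together, complexins bind the assembled SNAREs, and synaptotagmins couple calcium entry to fusion. Striatal projection neurons use GABA, which Gad1 and Gad2 make and Slc32a1 loads into vesicles. At the age studied most of these neurons are young, and many of these proteins also serve growing axons.

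Depth was 15938590 to 16753355 counts per control library and 18960574 to 20311799 per Zfhx3-CKO library. Dlx genes, which define ganglionic eminence neurons, were high in both groups (Dlx1 at 776 ± 45.8 and 817 ± 77.1 CPM, counts scaled to equal library size, SD, n = 3 each). Of 11 LGE and striatal neuron markers, 1 was called higher and 4 lower at an edgeR adjusted p of 0.05 (45.5%, against 7.36% of all tested genes). Their summed level was 4030 to 4331 CPM in the controls and 3424 to 3618 CPM in the Zfhx3-CKO libraries. Zfhx3, the targeted gene, was at 134, 135 and 101 CPM in the controls, against 98.7, 87.3 and 99.3 CPM with the conditional knockout (log2 fold change -0.37, edgeR adjusted p 0.091). It passed as lower with no filter (0.0308), in DESeq2 (0.0489) and without control library 3 (0.0259). Its counts cover the whole gene, so transcripts that lack the deleted part still add to them. The control libraries held at most 0.567 CPM of Xist and the Zfhx3-CKO libraries at least 2870.1, so sex and genotype cannot be told apart, and the set has 2 X-linked members, Syn1 and Syp. The summed level of 12 cortical excitatory neuron markers was 49.0 to 54.0 CPM in the controls, against 185, 48.6 and 283 CPM for the Zfhx3-CKO libraries 1 to 3, with no marker at 0 in all libraries. The labels do not tie the libraries to separate animals. All p-values here therefore reflect the spread between these libraries alone, which may be technical.

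Promoter sequence is shown for 3 members, the GABA enzyme genes Gad2 (the one whose level fell) and Gad1 (the one that did not pass), and Syn1, an X-linked gene. Each of Gad2 and Syn1 holds a marked motif, so the 3 do not stand for the other members. The sequences are RefSeq promoter windows of GRCm38.p6 on the gene's strand, 5′ to 3′, up to the last base before the annotated exon that holds RefSeq's start. They lie at chr2:22622077-22622204 (plus strand), chr2:70561879-70562041 (plus strand) and chrX:20921005-20921168 (minus strand), and that of Gad1 lies inside the annotated gene. Capitals mark the RE1 core, which was searched as AGCACC, any 2 bases and GGACAG, part of the element bound by the repressor REST, in Gad2, and the palindrome TGACGTCA, the cyclic AMP response element, in Syn1.
Gad2: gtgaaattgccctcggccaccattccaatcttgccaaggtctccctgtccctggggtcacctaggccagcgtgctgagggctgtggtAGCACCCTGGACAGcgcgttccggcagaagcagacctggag
Gad1: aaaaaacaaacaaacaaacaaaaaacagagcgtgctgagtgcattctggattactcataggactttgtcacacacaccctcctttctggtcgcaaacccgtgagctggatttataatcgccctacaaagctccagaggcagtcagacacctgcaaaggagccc
Syn1: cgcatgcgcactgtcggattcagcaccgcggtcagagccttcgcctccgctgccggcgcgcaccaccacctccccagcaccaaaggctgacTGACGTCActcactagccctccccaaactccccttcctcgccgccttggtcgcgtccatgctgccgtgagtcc
RefSeq windows were found for 30 of the 37 members, and 250 bases before each start were searched on both strands, in 32851 windows of all genes. The RE1 core was in 0.0457% of all windows and in 1 member, Gad2, where it begins 41 bases before the first exon base. Only exact matches were counted, so near matches were missed. The Syn1 window printed above holds agcaccgcggtcag, which differs from the core in 1 base. TGACGTCA was in 1.55% of all windows and in 1 member, Syn1. The homeodomain core TAATTA was in 4.84% of all windows and in 1 member, Syt6, and the longer RE1 consensus, which describes the same element as the core, was in 0.0578% and in 0 members. The GC box GGGCGG was in 32.7% of all windows and in 22 of the 30 members. Members were counted by gene and all genes by window, so these figures are not in like units. No motif overlaps another among those marked, and a match of letters is a description of the window, not of binding.

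Mean levels of the release machinery genes lay on both sides of those in the controls, with 20 higher and 17 lower in the Zfhx3-CKO LGE. Syt4, a synaptotagmin of dense-core vesicles, fell 2.42-fold, and Gad2 fell 1.28-fold. These 2 of the 37 members passed edgeR's test at an adjusted p of 0.05, both lower, where 7.36% of the 16551 tested genes passed in either direction and 3.49% as lower. The share of members called (5.41%) was thus near that of all genes. No member was called higher, where 3.87% of all genes were. At an unadjusted p of 0.05 edgeR gave 1 higher and 5 lower members, together 6 where 25.6% of all genes passed. DESeq2, another count test, called 0 members higher and 2 lower, where 1021 and 755 of all genes were. All 37 members passed the filter on low counts, their median log2 fold change was 0.01, and that of all tested genes was 0.00. The groups did not overlap for 5 members, 1 higher (Cplx2) and 4 lower (Syt4, Gad2, Cplx1 and Sypl), and for 31.4% of all tested genes, 15.5% higher and 15.9% lower. In bulk tissue, fewer cells of a type and less RNA per cell cannot be told apart. The count of lower members was 0 when control library 1 was left out (0.769% of all genes were then lower), 0 for control library 2 (0.843%) and 0 for Zfhx3-CKO library 1 (1.07%). It was 1 for control library 3 (1.82%), 2 for Zfhx3-CKO library 2 (3.61%) and 6 for Zfhx3-CKO library 3 (6.06%). With the replicate number as a blocking factor it was 0 (0.822%).

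The intervals say how large a difference the data leave room for. For 21 of the 37 members the 95% interval lay within 1.5-fold either way, as it did for 54.7% of all tested genes. It was narrowest for Syt11 (log2 -0.10 to 0.21) and Gad1 (-0.22 to 0.09). The widest belonged to Rab3a (-2.49 to 0.27) and Syt2 (-0.27 to 2.08), whose intervals reach a change of several fold in one direction. Syt2 was low in all libraries (0.717 to 3.43 CPM), and Rab3a ranged from 1.97 to 13.2 CPM in the controls.

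**Figure D1:**
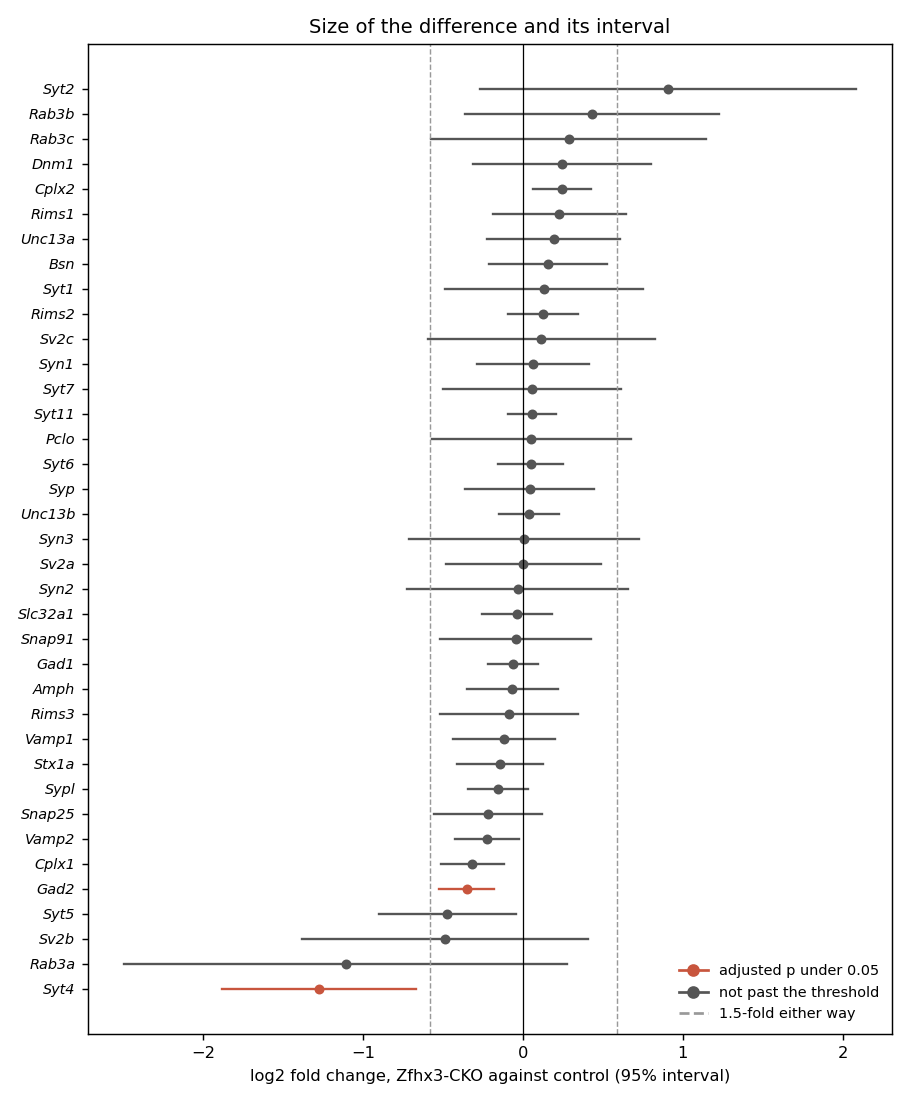
Log2 fold change of each of the 37 members (x axis, Zfhx3-CKO against control, with its 95% interval from edgeR's fit), ordered by size. Syt4 (-1.27) and Gad2 (-0.35), in red, are past the adjusted p threshold of 0.05, and dashed lines stand at 1.5-fold either way.

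Among the 7 synaptotagmin genes, 1 fell and 6 did not pass. Syt4 (ENSMUSG00000024261, GRCm38 chromosome 18, 31437808 to 31447415) was at 147, 121 and 106 CPM in the controls, and 50.8, 31.0 and 73.0 CPM in Zfhx3-CKO libraries 1 to 3. Every Zfhx3-CKO library lay below every control, and library 2 was the lowest and library 3 the highest of the 3. The means were 125 ± 20.5 and 51.6 ± 21.0 CPM (SD, n = 3 in both groups), which is a log2 fold change of -1.27 (SE 0.27, edgeR adjusted p 0.027). The call was lost without control library 1, 2 or 3 or Zfhx3-CKO library 1 (adjusted p 0.0582 to 0.127) and under a replicate block (0.0621), with log2 fold changes of -1.01 to -2.01 over all alternatives. The summed cortical markers of these libraries (185, 48.6 and 283 CPM) had the same order as Syt4, and their part in its values was not tested.

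The other synaptotagmins varied in different ways across the libraries. Syt5, a vesicle synaptotagmin, was at 92.0, 92.5 and 85.9 CPM in the controls, against 52.5, 53.2 and 89.2 CPM in the Zfhx3-CKO libraries (log2 fold change -0.47, edgeR adjusted p 0.159). Libraries 1 and 2 lay well below the controls and library 3 lay among them, so the groups overlapped. Without library 3 Syt5 passed (log2 fold change -0.77, edgeR adjusted p 0.000539), and with no filter it passed narrowly (0.0488). On leaving out any other single library it did not pass (edgeR adjusted p 0.245 to 0.387), nor under a replicate block (0.193). Syt1, the calcium sensor of fast release, was at 99.3, 94.7 and 70.4 CPM in the controls, against 89.7, 59.4 and 140.0 CPM in the Zfhx3-CKO libraries (log2 fold change 0.13, adjusted p 0.809). Its Zfhx3-CKO values spanned the controls on both sides. Syt7, a slower calcium sensor, had the same order of Zfhx3-CKO libraries (33.3, 29.5 and 57.5 CPM). Syt11, which lacks calcium binding, varied little, at 338, 323 and 350.2 CPM in the controls and 356, 363 and 331 CPM in the Zfhx3-CKO libraries, and Syt6 stayed between 191 and 240.1 CPM in all 6. Syt2, a fast sensor of the hindbrain and spinal cord, was low, at 0.717 to 3.43 CPM.

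Per length, Syt11 was the most abundant of the 7 in the controls at 64.9 ± 3.03 FPKM (fragments scaled to transcript length and library size, SD, n = 3), followed by Syt5 at 37.9 ± 1.32, Syt6 at 36.9 ± 3.47 and Syt4 at 32.1 ± 5.18. Syt5, Syt6 and Syt4 were within about their spreads of each other. Syt1, which dominates at mature forebrain synapses, was at 10.6 ± 1.82 FPKM. Of the summed FPKM of the 7 genes, Syt4 made up 17.0% ± 1.76 in the controls and 7.92% ± 2.38 in the Zfhx3-CKO libraries, and Syt6 19.6% ± 0.933 and 23.4% ± 1.38, without overlap in either case.

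**Figure D2:**
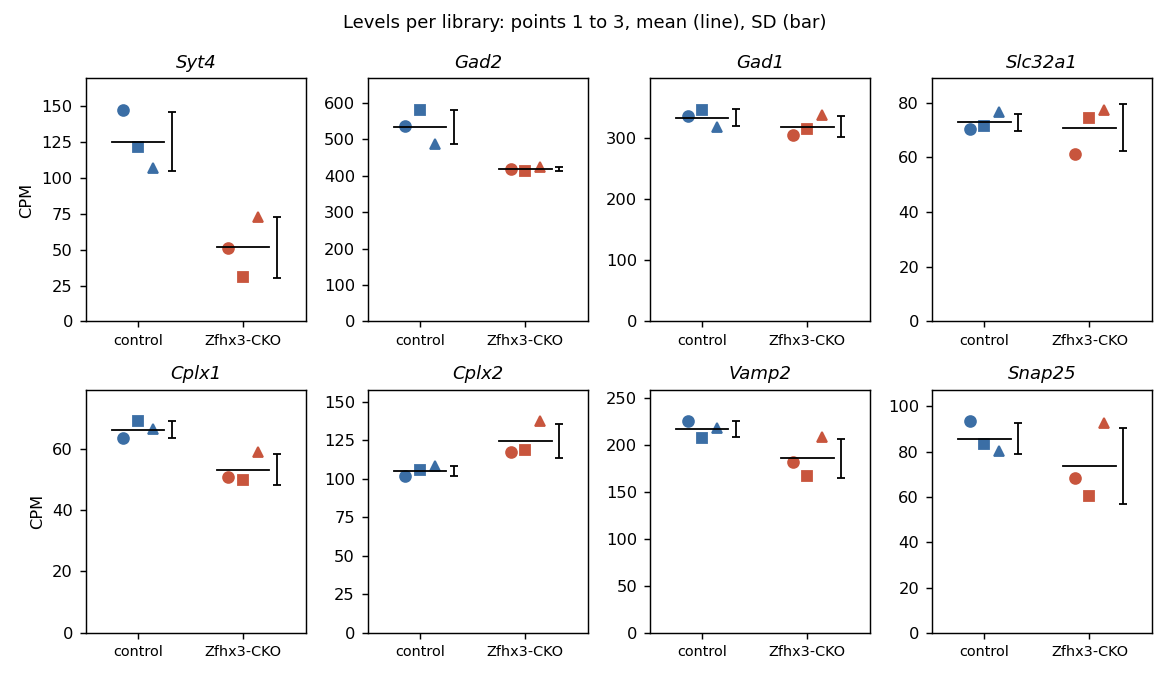
CPM (y axis, from 0) of 8 members in each library: circles, squares and triangles are libraries 1, 2 and 3 of the group, the line is the mean and the bar the SD of 3. Syt4, Gad2 and Cplx1 are lower and Cplx2 higher in every Zfhx3-CKO library than in every control, and Gad1, Slc32a1, Vamp2 and Snap25 overlap.

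Of the 3 genes that supply GABA to vesicles, 1 fell and 2 did not pass. Gad2 (ENSMUSG00000026787, GRCm38 chromosome 2, 22622205 to 22693874), the GABA-making enzyme associated with nerve terminals, was at 536, 580.2 and 487 CPM in the controls, against 419.5, 412 and 423 CPM in the Zfhx3-CKO libraries. The Zfhx3-CKO values were close together and all below the controls. The means were 534 ± 46.7 and 418 ± 5.69 CPM (SD, n = 3 each; log2 fold change -0.35, SE 0.08, edgeR adjusted p 0.0293). The call was lost on leaving out control library 1 or 2 or Zfhx3-CKO library 1 (adjusted p 0.11 to 0.134), under a replicate block (0.108) and without Zfhx3-CKO libraries 1 and 3 (0.0618), with log2 fold changes of -0.28 to -0.42 over all alternatives. Gad1, the enzyme found through the whole neuron, was at 336, 346 and 319 CPM in the controls, against 305, 315 and 337 CPM in the Zfhx3-CKO libraries, which overlapped (log2 fold change -0.06, 95% interval -0.22 to 0.09, adjusted p 0.602). Slc32a1, the vesicular GABA transporter, was at 70.5, 71.6 and 76.4 CPM against 61.2, 74.2 and 77.2 CPM (log2 fold change -0.04, 95% interval -0.26 to 0.18, adjusted p 0.838).

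The GABA genes were among the most abundant members per length, Gad2 being the highest of all 37 in the controls at 91.0 ± 7.42 FPKM (SD, n = 3). In the Zfhx3-CKO libraries it was at 71.1 ± 1.01 FPKM, where Syt11 was at 67.2 ± 3.50. The share of Gad1 in the summed FPKM of Gad1 and Gad2 was 32.5%, 31.4% and 33.5% in the controls and 35.8%, 37.02% and 38.0% in the Zfhx3-CKO libraries. All 3 Zfhx3-CKO shares were above all control shares.

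None of the 6 SNARE and complexin genes passed in edgeR's test, 1 being higher and 2 lower at an unadjusted p of 0.05, and DESeq2 called none of them. The 2 complexins stood apart in opposite directions. Cplx1 was at 63.4, 68.8 and 66.4 CPM in the controls, against 50.8, 49.7 and 59.0 CPM in the Zfhx3-CKO libraries (log2 fold change -0.32, SE 0.09, adjusted p 0.0602), all below the controls. Cplx2 was at 101, 106 and 108 CPM in the controls, against 117, 119 and 137 CPM in the Zfhx3-CKO libraries (log2 fold change 0.24, SE 0.08, adjusted p 0.0973), all above. Complexins bind assembled SNAREs and both restrain and promote fusion. Without Zfhx3-CKO library 3, the highest of its group for Cplx1, Cplx1 passed as lower (log2 fold change -0.40, edgeR adjusted p 0.0108). On leaving out any other single library it did not pass (edgeR adjusted p 0.11 to 0.228).

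The balance of the complexins varied less between libraries than either gene did. Cplx2 made up 41.5%, 40.5% and 42.0% of their summed FPKM in the controls and 50.6%, 51.5% and 50.8% in the Zfhx3-CKO libraries. The means were 41.3% ± 0.731 and 51.0% ± 0.446 (SD, n = 3 each), so the groups were separated by many times the spread within each. Shares were computed for all 27 genes of 9 families among the members. In a family of 2 genes the shares add up to the whole, so the lower shares of Cplx1 and Gad2 repeat the higher ones of Cplx2 and Gad1. Besides these families, the shares of Syt6 and Rims1 were higher and those of Syt4 and Sv2b lower without overlap. In larger families, too, a share can rise because others fall. Syt6 itself was at 215 ± 21.2 CPM in the controls and 222 ± 15.6 CPM in the Zfhx3-CKO libraries (log2 fold change 0.05, edgeR adjusted p 0.783). No share over all genes is at hand to set beside the shares that did not overlap. Those shares were picked out after their values were seen. With 3 libraries against 3 the exact two-sided permutation test cannot go below p = 0.1, so these shares are given as a description.

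**Figure D3:**
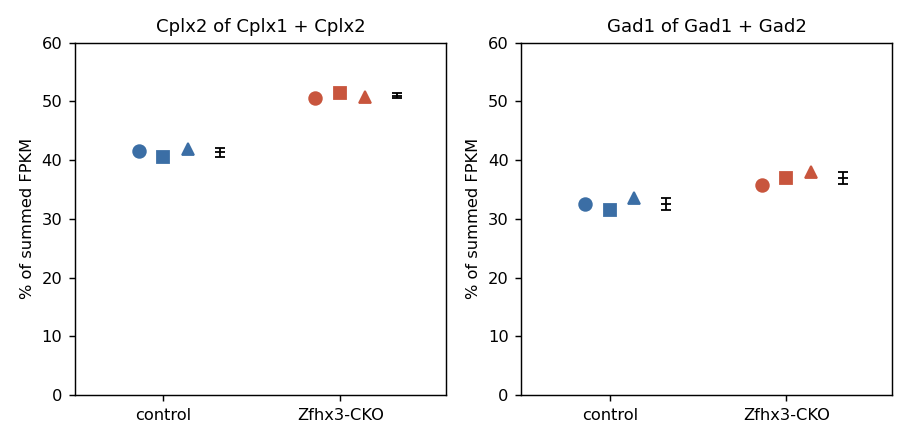
Share of Cplx2 in the summed FPKM of Cplx1 and Cplx2 (left) and of Gad1 in that of Gad1 and Gad2 (right), in percent, for libraries 1 to 3 (circle, square, triangle) of each group, with mean and SD. Cplx2 moves from 41.3% to 51.0% and Gad1 from 32.5% to 36.96%, with no overlap in either panel.

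Genes of the SNARE proteins themselves had somewhat lower means in the Zfhx3-CKO group and did not pass. Vamp2, the vesicle SNARE, was at 225, 208 and 219 CPM in the controls, against 182, 167 and 208 CPM in the Zfhx3-CKO libraries (log2 fold change -0.23, edgeR adjusted p 0.155). Snap25, a plasma membrane SNARE, was at 93.3, 83.3 and 80.5 CPM against 68.2, 60.3 and 92.6 CPM (log2 fold change -0.22, adjusted p 0.39). Stx1a, the syntaxin partner, was at 44.7, 46.9 and 41.1 CPM against 40.1, 34.0 and 46.1 CPM (log2 fold change -0.14, adjusted p 0.483). In all 3 genes Zfhx3-CKO libraries 1 and 2 lay below every control and library 3 did not. Without library 3, Vamp2 (log2 fold change -0.31, edgeR adjusted p 0.0288) and Snap25 (-0.41, adjusted p 0.0219) passed as lower. On leaving out any other single library neither passed (edgeR adjusted p 0.271 to 0.394 for Vamp2 and 0.429 to 0.706 for Snap25). Vamp1, a SNARE of the hindbrain and spinal cord, made up 2.33% ± 0.452 of the summed Vamp1 and Vamp2 FPKM in the controls (SD, n = 3) and 2.51% ± 0.361 in the Zfhx3-CKO libraries.

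None of the 8 vesicle protein genes passed in edgeR's test, where none had an unadjusted p under 0.05, and DESeq2 called none. Their Zfhx3-CKO libraries lay on both sides of the controls. Syn1, a synapsin that tethers vesicles in clusters, was at 81.0, 87.4 and 85.8 CPM in the controls, against 91.5, 66.3 and 108 CPM in the Zfhx3-CKO libraries (log2 fold change 0.07, 95% interval -0.29 to 0.42). Syp, the tetraspan vesicle protein synaptophysin, was at 49.5, 45.3 and 42.9 CPM against 45.9, 34.9 and 60.8 CPM (log2 fold change 0.04, 95% interval -0.36 to 0.45). Sv2a, a glycoprotein of nearly all synaptic vesicles, was at 112, 106 and 90.6 CPM against 97.2, 71.2 and 141 CPM (log2 fold change 0.00, 95% interval -0.48 to 0.49). In each of these genes Zfhx3-CKO library 2 was below every control and library 3 above every control. The 4 other genes, Syn2, Syn3, Sv2b and Sv2c, ranged from 0.846 to 34.9 CPM in the 6 libraries, with library 2 the lowest and library 3 the highest of the Zfhx3-CKO group in each. Sypl, a relative of synaptophysin found in many tissues, was the exception, at 39.3, 39.5 and 40.8 CPM against 34.6, 38.4 and 34.3 CPM (log2 fold change -0.16, adjusted p 0.27). Syn1 made up 84.1% ± 2.98 and 85.4% ± 3.26 of the summed FPKM of the 3 synapsins, and Sv2a 93.8% ± 0.506 and 93.9% ± 0.962 of that of the 3 Sv2 genes, in the control and Zfhx3-CKO groups. Exons of Syn3 share 1733 bases with Timp3 on the other strand (14.1% of the exon bases of Syn3), and the library kit named in the labels does not mark strand, so counts of Syn3 are uncertain. Of the shorter overlaps, the longest were those of Syp (875 bases with Gm14703), Slc32a1 (697 with Gm14205, 24.9% of its exon bases), Syt4 (566 with Gm26658), Syt6 (505 with Atg4a-ps) and Unc13a (495 with Colgalt1), where Colgalt1 averaged 75.6 CPM and the other partners at most 0.992.

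None of the 10 Rab3 and active zone genes passed in edgeR's test, none had an unadjusted p under 0.05, and DESeq2 called none. Bsn, the active zone scaffold bassoon, was at 157, 155 and 118 CPM in the controls, against 150.2, 131 and 197 CPM in the Zfhx3-CKO libraries (log2 fold change 0.15, adjusted p 0.596). Rims1, which links Rab3 and calcium channels to the active zone, was low, at 5.85, 5.54 and 4.42 CPM against 6.31, 5.29 and 6.91 CPM (log2 fold change 0.23, adjusted p 0.473). Of the Rims genes, Rims2 and Rims3 made up nearly all the FPKM (48.0% ± 1.07 and 48.4% ± 1.09 in the controls, SD, n = 3). Pclo, a large scaffold related to bassoon, was at 104, 84.1 and 59.8 CPM in control libraries and at 77.0, 58.7 and 122 CPM with the conditional knockout (log2 fold change 0.05, adjusted p 0.928). In both genes library 2 was the lowest and library 3 the highest of the Zfhx3-CKO group. Unc13a, the main priming factor, had 218, 205 and 167 CPM in control libraries and 232, 163 and 279.5 CPM with the conditional knockout, again with library 2 lowest and library 3 highest. Per length it was at 15.6 ± 2.04 FPKM in the controls and Unc13b, its relative, at 5.81 ± 0.226. The 95% interval of Unc13b (log2 -0.15 to 0.23) was among the narrow ones.

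Rab3 proteins are small GTPases of vesicles, and all 3 of their genes varied widely within the Zfhx3-CKO group. Rab3c was at 211, 120.3 and 91.6 CPM in the controls, against 179.7, 90.6 and 246 CPM in the Zfhx3-CKO libraries (log2 fold change 0.29, adjusted p 0.682). Rab3a, the main Rab3 of mature brain, was at 1.97, 13.2 and 9.81 CPM in the controls, against 1.81, 4.71 and 5.07 CPM in the Zfhx3-CKO libraries (log2 fold change -1.11, SE 0.61, adjusted p 0.289). Library 1 of each group was far below the others for Rab3a. Without Zfhx3-CKO library 2, Rab3b passed as higher (log2 fold change 0.76, edgeR adjusted p 0.0496), where 857 of all genes were higher. That library was the lowest of its group for Rab3b, at 10.8, 5.24 and 16.4 CPM in libraries 1 to 3. On leaving out any other single library Rab3b did not pass (edgeR adjusted p 0.541 to 0.994).

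The 3 endocytosis genes did not pass either, in edgeR or DESeq2, and none had an unadjusted p under 0.05. Dnm1, the dynamin that cuts off vesicles at nerve terminals, was at 93.4, 93.5 and 73.3 CPM in the controls, against 91.6, 68.9 and 148 CPM in the Zfhx3-CKO libraries (log2 fold change 0.24, adjusted p 0.576). Snap91, a clathrin assembly protein, was at 113, 108 and 94.9 CPM against 98.8, 69.8 and 137 CPM (log2 fold change -0.05, adjusted p 0.913). Amph, amphiphysin, had the same order of libraries (46.4, 40.6 and 57.6 CPM in the Zfhx3-CKO group).

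**Figure D4:**
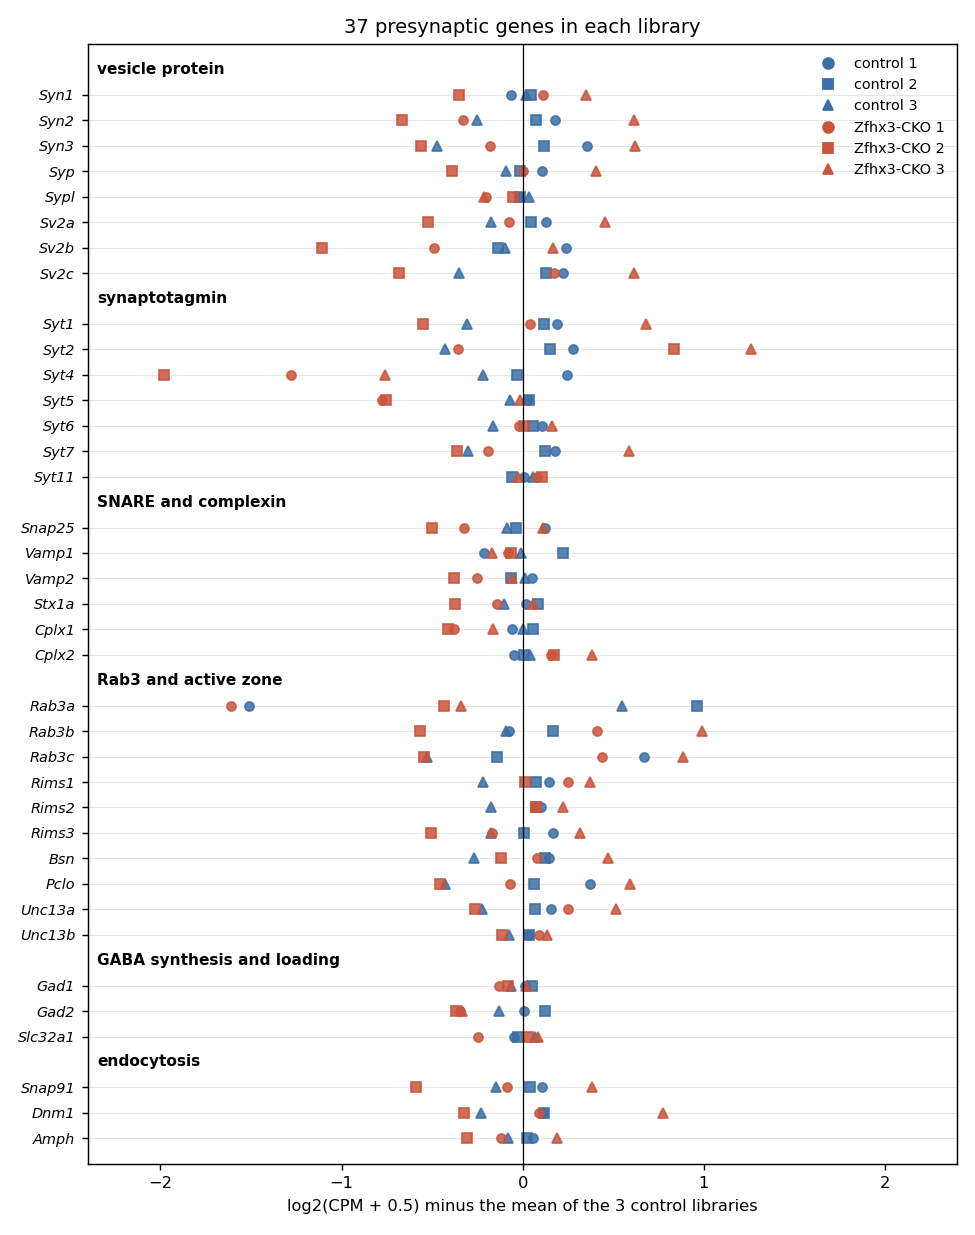
Difference of log2(CPM + 0.5) from the control mean (x axis) for each of the 37 members in each library, grouped by role; blue is control and red Zfhx3-CKO, with circles, squares and triangles for libraries 1, 2 and 3. Zfhx3-CKO library 2 is the lowest and library 3 the highest of the Zfhx3-CKO libraries for 27 members.

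Most members followed the same order among the Zfhx3-CKO libraries. Zfhx3-CKO library 3 was the highest of its group and library 2 the lowest for 27 of the 37 members (73.0%), an order seen in 24.5% of all tested genes. For 17 members (45.9%, against 7.95% of all tested genes) library 2 lay below every control and library 3 above every control. In the control group library 3 was the lowest for 27 members (73.0%, against 37.3% of all genes). These counts were chosen after the values were seen and carry no test.

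The size of that spread differed between roles. Zfhx3-CKO library 3 was at least 1.5 times library 2 for 20 of 37 members, against 12.8% of all tested genes. Those 20 were 7 of 8 vesicle protein genes (all but Sypl), 4 of 7 synaptotagmins, 1 of 6 SNARE and complexin genes (Snap25), 6 of 10 Rab3 and active zone genes and 2 of 3 endocytosis genes. None of the 3 GABA genes was among them, with ratios of 1.03 for Gad2, 1.04 for Slc32a1 and 1.07 for Gad1. Among the vesicle protein genes the median ratio was 2.14.

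Other lists also differed between these libraries, not all of them in the members' order. As the median difference from the control mean on the log2(CPM + 0.5) scale, the members had -0.09, -0.38 and 0.32 in the Zfhx3-CKO libraries 1 to 3, against 0.11, 0.06 and -0.13 for the controls. The medians of 11 tested cortical excitatory markers were 1.55, 0.02 and 1.90 in the Zfhx3-CKO libraries, and Neurod2, a cortical projection neuron factor, was at 39.0, 9.68 and 69.4 CPM there and averaged 8.31 ± 0.290 CPM in the controls (SD, n = 3). The 10 progenitor and cycling genes had 0.38, 0.47 and 0.07 for the Zfhx3-CKO libraries, against -0.09, -0.03 and 0.13 for the controls, so that they were highest where the members were lowest in either group. The 9 pan-neuronal genes had medians of -0.28, -0.37 and -0.08 in the Zfhx3-CKO group, against 0.05, 0.03 and -0.06 in the controls. For 5 markers of the medial ganglionic eminence the medians were 0.49, 0.86 and 1.13, against -0.12, 0.08 and 0.05. Those of the 11 LGE and striatal neuron markers were -0.22, -0.07 and -0.21, against -0.06, 0.03 and -0.04, with Zfhx3-CKO library 2 the highest of its group. The part of these cells in the members' values was not tested. With Zfhx3-CKO library 2 as the lone library of its group, in a fit that assumes that it varies like the controls and was chosen after the values were seen, 11 members passed as lower (Cplx1, Rims3, Snap25, Snap91, Sv2a, Sv2b, Syn1, Syn2, Syt4, Syt5 and Vamp2), where 4.93% of all genes did. Without Zfhx3-CKO library 3, 6 members were lower (Cplx1, Gad2, Snap25, Syt4, Syt5 and Vamp2), where 6.06% of all genes were.

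**Figure D5:**
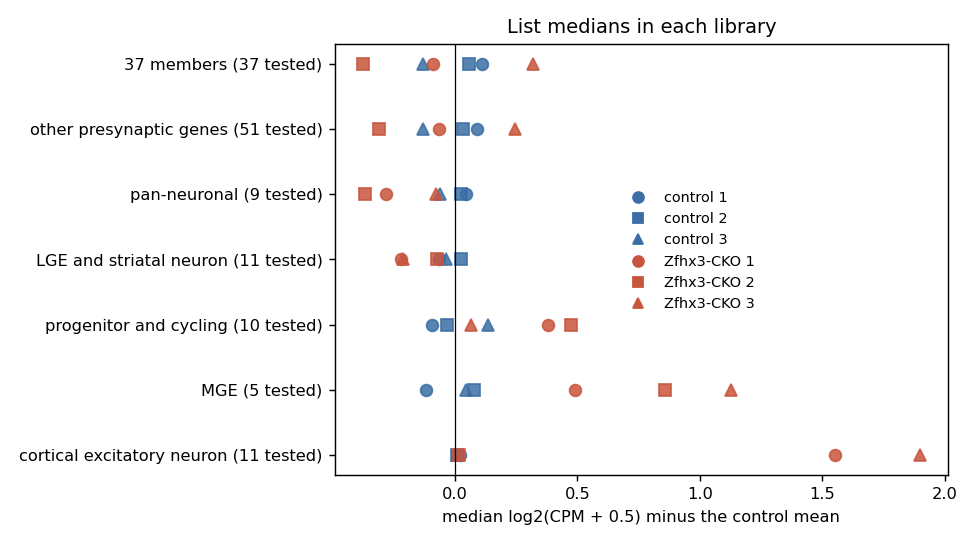
Median difference of log2(CPM + 0.5) from the control mean (x axis) of the 37 members and 6 other gene lists, in each library. The members run from -0.38 in Zfhx3-CKO library 2 to 0.32 in library 3, where the cortical excitatory list stands at 0.02 and 1.90.

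A list of 53 other presynaptic genes was examined in the same fit, and 51 were tested. Of these 1 rose, 2 fell and 48 did not pass (5.88% called, against 7.36% of all tested genes), and their median log2 fold change was -0.01. Rph3a, rabphilin, a Rab3-binding protein with synaptotagmin-like calcium-binding domains, fell 2.72-fold, from 130.01, 137 and 106 CPM to 46.4, 28.0 and 62.8 CPM (log2 fold change -1.44, SE 0.25, edgeR adjusted p 0.0125). The groups did not overlap, and Zfhx3-CKO library 2 was the lowest and library 3 the highest, as for Syt4. Slc18a2, the vesicular monoamine transporter, rose from 182, 179.7 and 166 CPM to 233, 224 and 199 CPM (log2 fold change 0.31, adjusted p 0.0489), close to the threshold. The call of Rph3a was lost on leaving out control library 1 or 2 or Zfhx3-CKO library 1 (adjusted p up to 0.077) and with the replicate block (0.0526). That of Slc18a2 was lost without control library 1, 2 or 3 or Zfhx3-CKO library 1 or 2 (adjusted p up to 0.163), with library totals only (0.0525) and with the replicate block (0.108). Without Zfhx3-CKO library 3, 8 genes of this list were lower, where 6.06% of all genes were. The order of libraries was like that of the members, with library 3 highest and library 2 lowest of the Zfhx3-CKO group for 41 of the 51.

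In the authors' deposited table, 3 of the 37 members have an adjusted p under 0.05, where 11.7% of the 14721 genes with an adjusted p there do, all 3 of them lower, as are 4.88% of those genes: Gad2 (0.00355), Syt4 (0.00929) and Cplx1 (0.0488). The log2 fold change of Syt4 in the authors' deposited table is -0.75, smaller than the -1.27 fitted from the counts. The authors' deposited table gives no p for Syt5.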

How the data were processed

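Libraries were made with an Illumina TruSeq RNA kit, per the labels' protocols. Tools listed in the submitters' processing notes are edgeR, StringTie, HISAT2 and bcl2fastq 2.17.1.14, with builds mm10 and GRCm38.p4, all without roles. The deposited counts are whole reads or fragments per gene and the deposited FPKM values are scaled by length and library, per the file headers; the log2 fold changes and p-values of the authors come from a test not given in the sources used here. Columns of the full table were tied to samples by replicate number and group word, and held values identical to the titled columns of the shorter table (3726 genes).

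Counts were tested with edgeR's quasi-likelihood method (R 4.3.3, edgeR 4.0.16, limma 3.58.1) with TMM factors, filterByExpr (minimum count 10) and Benjamini-Hochberg adjustment over 16551 genes at 0.05, tried first on simulated data. CPM is the count per library total times its TMM factor, and SE and 95% intervals come from the F statistic. Alternatives were DESeq2 1.42.0, RLE factors, no filter, a replicate block and each library left out; library totals only and the fit without Zfhx3-CKO libraries 1 and 3 were added. Members and lists were chosen with earlier results of these data known. Named in full were members past the threshold, those whose groups do not overlap and fixed genes of each role, and from other lists called genes and up to 3 markers; further genes were named after their values were seen. Pairs of libraries of 1 group differed by more than sampling noise (chi-square per gene 3.36 to 29.7, where noise gives about 1). Each was treated as 1 replicate, which that spread cannot establish, since it may be technical. A called gene of the other presynaptic list is counted but not reported here.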

Additional observations from a re-analysis of the deposited data

How the results depend on the processing

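With 3 libraries per group, calls of members rest on few values. Without single libraries in turn, 0 to 1 members were called higher and 0 to 6 lower, 0 to 3 other presynaptic genes were higher and 0 to 8 lower, and 156 to 1082 of all genes were higher and 131 to 1014 lower (640 and 578 with all 6). Replicate numbers did not pair libraries (correlation of deviations of same-numbered libraries -0.05, -0.09 and -0.29). With the replicate block 0 members were lower, 0 other presynaptic genes were higher and 0 lower, and 176 of all genes were higher and 136 lower. Without Zfhx3-CKO libraries 1 and 3, 11 members were lower, and 2 other presynaptic genes were higher and 13 lower. In that fit Syn1 had a log2 fold change of -0.35 and Sv2a of -0.53, where with all libraries they lay at 0.07 and 0.00. With library totals only, 0 other presynaptic genes were higher, where 620 of all genes were. Of all genes, 1075 were higher with no filter on low counts and 1021 with DESeq2. The cause of these shifts was not tested. RLE factors, DESeq2 and library totals each called 2 members lower, Gad2 and Syt4, where 558, 755 and 582 of all genes were lower. The fit with no filter called 3, with Syt5 added, where 786 of all genes were lower. RLE factors and library totals moved the median of all genes by 0.005 and -0.005 (log2), and the signs of Syt4 and Gad2 were kept in all 13 settings. Counts are low for Syt2, Sv2b and Rims1 (0.717 to 6.91 CPM), and for Rab3a in control library 1 (1.97 CPM) and Zfhx3-CKO library 1 (1.81 CPM). Counting error weighs most at such levels.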

Other observations

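Vesicular transporters of other transmitters were measured beside the GABA transporter. Slc17a6, a vesicular glutamate transporter, was at 5.31, 4.09 and 4.78 CPM in the controls, against 15.7, 3.28 and 15.5 CPM in the Zfhx3-CKO libraries (edgeR adjusted p 0.147), with libraries 1 and 3 above the controls and library 2 below them. It is itself in the list of cortical excitatory markers that is high in those libraries, as is Slc17a7. Slc17a7, the other cortical glutamate transporter, was below the filter on low counts, at 0.120 to 2.05 CPM in the 6 libraries. Slc18a3, the vesicular acetylcholine transporter, was at 1.43, 1.83 and 1.49 CPM against 2.84, 0.582 and 4.76 CPM (adjusted p 0.44), and was called higher without Zfhx3-CKO library 2.

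The calcium sensors Doc2a and Doc2b stood apart in opposite directions, like the complexins. Doc2a was at 1.07, 1.83 and 1.49 CPM in the controls, against 2.64, 2.12 and 3.89 CPM in the Zfhx3-CKO libraries (log2 fold change 0.98, edgeR adjusted p 0.0945). Doc2b was at 23.9, 24.2 and 20.7 CPM against 13.6, 8.46 and 18.2 CPM (log2 fold change -0.77, adjusted p 0.0877). Neither passed in that test, and the groups overlapped for neither. Doc2b was called lower with no filter, by DESeq2, without Zfhx3-CKO library 3 and without libraries 1 and 3, and Doc2a higher without Zfhx3-CKO library 2. Of the 51 tested presynaptic genes outside the set, 6 higher and 6 lower had groups that did not overlap, as had 31.4% of all tested genes, and this pair was chosen after its values were seen.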
